A study of Mus musculus with 18 samples.

Results

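The genes Sox9, Sox5, Sox6, Ihh, Gli1, Ptch1, Hhip, Runx3, Foxa2 and Foxa3, which encode cartilage transcription factors and parts of the Indian hedgehog pathway, were followed through 18 RNA-seq libraries of osterix-derived mouse cells. These 10 genes were taken by name from the 54446 gene IDs counted, and all 10 were among the 15516 genes that passed the filter on low counts. The study compared cells of mice with a conditional PTH1R KO and cells of Wild type controls, all at postnatal day 21. PTH1R, encoded by Pth1r, binds parathyroid hormone and the related protein PTHrP. Osterix is needed for osteoblasts to form, and cells derived from it can include hypertrophic chondrocytes and their descendants as well as osteoblasts. Each genotype was sorted into 3 subsets with 3 libraries each. The marrow subset was bone marrow stromal cells labelled GFP-Tm+, the GFP-positive bone subset was bone cells labelled GFP+, and the GFP-negative bone subset was bone cells labelled GFP-Tm+. The sources used here do not give the driver of the deletion, the reporters behind GFP and Tm, or whether replicates were separate mice. The p-values then measure only the spread between the libraries at hand, which may be technical.

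In the growth plate, prehypertrophic chondrocytes make Indian hedgehog (IHH). IHH binds the receptor PTCH1, which frees the transducer SMO and lets the GLI factors act, and Ptch1, Gli1 and Hhip are themselves switched on by this signal in many tissues. IHH also raises PTHrP near the ends of the bone, and PTHrP, acting through PTH1R, holds chondrocytes in the proliferating state and delays the IHH-making stage. SOX9, with its partners SOX5 and SOX6, drives the cartilage matrix genes, while RUNX3, FOXA2 and FOXA3 act with RUNX2 in the later, hypertrophic programme.

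Libraries held 16443595 to 27160257 counted reads and 18486 to 20237 genes with a count. Levels are CPM, a gene's counts scaled to a common library size, after TMM scaling, and a gene with no count in a library could be present at up to 0.0966 to 0.216 CPM, the range of 3 counts over the libraries. Pth1r, the targeted gene, was lower in all 3 knockout subsets, with log2 fold changes of -0.70 ± 0.13 in marrow, -0.52 ± 0.13 in GFP-positive bone and -0.56 ± 0.13 in GFP-negative bone (± SE; adjusted p = 0.000195, 0.00226 and 0.00145). Its reads remained in every knockout library, and the counts do not tell reads of the deleted part from the rest of the gene. Relative to its subset, every knockout library gave more reads to longer genes (0.109 to 0.176 log2 per doubling of merged exon length) and every control library fewer (-0.190 to -0.106), so this trend and the genotype cannot be told apart. Sox5, Sox6, Ptch1 and Hhip have merged exons of 9076 to 14832 bases and lie between the 88.8th and the 97.6th percentile of length, so their changes within each subset are also given with the length trend removed.

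The chondrocyte markers set the context of every value below, because the genes described here are cartilage genes. All 8 markers on the list (Col2a1, Acan, Col9a1, Matn1, Matn3, Hapln1, Cnmd and Snorc) had counts in every group. Their summed level in GFP-positive bone was 246284 to 261055 CPM of the library total in knockout libraries and 118692 to 144065 CPM in control libraries. In GFP-negative bone the sums were 20189 to 22766 CPM in knockouts and 30818 to 41458 CPM in controls, and in marrow they were 2521 to 2875 CPM in knockouts and 1935 to 2336 CPM in controls. The marker sum was thus above the control range in knockout GFP-positive bone and marrow and below it in knockout GFP-negative bone. Most of it is Col2a1, with a mean of 218855 CPM in knockout and 91556 CPM in control GFP-positive bone. Matn1, Matn3, Hapln1, Cnmd and Snorc, 5 of the 8 markers, had lower means in knockouts in GFP-positive bone and in marrow, for example 4453 CPM in knockouts and 9116 CPM in controls for Cnmd in GFP-positive bone. In GFP-negative bone all 8 means were lower in knockouts. These marker levels are shares of the library total without the TMM scaling used for the 10 genes, and some directions depend on that choice. With TMM scaling the means of Matn1 and Snorc in GFP-positive bone and of Acan in GFP-negative bone were higher in knockouts. The marrow sums of knockouts and controls then overlapped. Blood markers stood out in single libraries, with 5 megakaryocyte markers at 274 CPM in knockout marrow replicate 2, and 6 erythroid markers at 468 CPM in knockout GFP-positive bone replicate 2 and 470.4 CPM in control GFP-negative bone replicate 2. Calls of the 10 genes that change without 1 of these libraries are named beside the result. In these bulk samples fewer cells of a type and less RNA per cell cannot be told apart, and the part of the marker shift in the results was not tested.

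**Figure D1:**
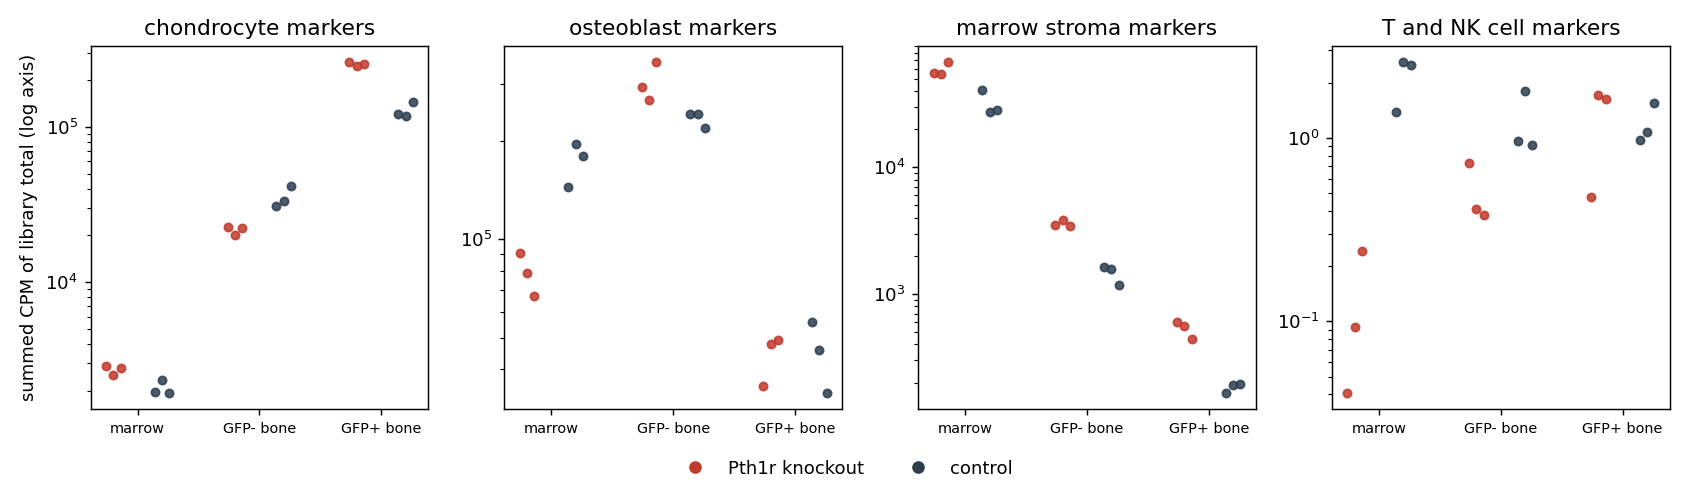
Summed CPM of the library total (log axes) for the chondrocyte, osteoblast, marrow stroma, and T and NK cell marker lists, 1 point per library, knockout (red) left of control (dark). The chondrocyte sum is highest in knockout GFP-positive bone (246284 to 261055 CPM), while the T and NK cell sum stays at or under 2.58 CPM in every library.

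Ihh encodes the ligand and lies on chromosome 1 of mm10 (74945315 to 74951672, minus strand). Its level fell in knockouts of every subset, and most in GFP-negative bone, where it had 64.9, 43.9 and 42.0 CPM in knockout libraries, against 226, 201 and 243 CPM in control libraries. No knockout library reached the lowest control library, and the log2 fold change was -2.15 ± 0.19 (edgeR quasi-likelihood test, adjusted p = 1.16e-07). In marrow, Ihh had 3.96, 3.32 and 4.93 CPM in knockouts and 9.17, 8.25 and 6.33 CPM in controls, again without overlap (log2 -0.98 ± 0.26, adjusted p = 0.00431). In GFP-positive bone, where it was most abundant, Ihh had 786, 586 and 436 CPM in knockouts and 844, 901 and 923 CPM in controls. The 3 knockout libraries there spread widely below the controls (log2 -0.56 ± 0.18, adjusted p = 0.0148). That call was lost without knockout replicate 3 (-0.37, adjusted p = 0.0801) and with the length trend removed (-0.36, adjusted p = 0.0941). The fall in GFP-negative bone was larger than in either other subset: the knockout effect in GFP-positive bone minus that in GFP-negative bone was 1.59 ± 0.26 (adjusted p = 0.00104), and the effect in GFP-negative bone minus that in marrow was -1.16 ± 0.32 (adjusted p = 0.0332). The second difference had an adjusted p of 0.0574 to 0.105 in 8 of the 12 fits that left out 1 library (control marrow 2 or 3, knockout marrow 1 or 3, control GFP-negative bone 1 or 3, knockout GFP-negative bone 2 or 3), and of 0.114 with no filter on low counts.

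Ptch1, the receptor gene and a common readout of Hedgehog signalling (chromosome 13, 63508328 to 63573598, minus strand), moved the other way and rose in all 3 knockout subsets. In marrow it had 23.4, 27.6 and 36.2 CPM in knockout libraries, against 5.80, 7.31 and 8.14 CPM in control libraries, a log2 fold change of 2.04 ± 0.19 (adjusted p = 9.78e-08). In GFP-positive bone it had 38.2, 41.0 and 27.8 CPM in knockouts and 12.4, 10.7 and 11.3 CPM in controls (log2 1.64 ± 0.18, adjusted p = 4.42e-07). Ptch1 in GFP-negative bone had 14.8, 16.4 and 16.5 CPM in knockouts and 8.21, 5.77 and 7.85 CPM in controls (log2 1.13 ± 0.21, adjusted p = 0.000152). In each subset the lowest knockout library stood above the highest control library. With the length trend removed the rises were 1.32 in marrow (adjusted p = 8.41e-06), 0.62 in GFP-positive bone (adjusted p = 0.00514) and 0.36 in GFP-negative bone, the last no longer called (adjusted p = 0.148). The difference of the effect in GFP-negative bone from that in marrow just missed the threshold (-0.91 ± 0.28, adjusted p = 0.0551). It passed without control GFP-negative bone replicate 2 (-1.06) or knockout marrow replicate 1 (-1.04), with the length trend removed (-0.96), with DESeq2 (-0.82) and with library totals alone (-1.29). The effect in GFP-positive bone minus that in marrow was -0.40 ± 0.26 (adjusted p = 0.33), and was called with the length trend removed (-0.71, adjusted p = 0.0472) and with library totals alone (-0.92, adjusted p = 0.0122). The 7 marrow stroma markers also summed higher in knockouts, to 54507 to 67127 CPM in knockout and 27325 to 40596 CPM in control marrow. In GFP-positive bone they summed to 444 to 599 CPM in knockouts and 166 to 194 CPM in controls, and in GFP-negative bone to 3413 to 3862 CPM in knockouts and 1169.9 to 1635 CPM in controls. Their part in the rise of Ptch1 and of the other Hedgehog genes was not tested.

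Gli1, a GLI transcription factor induced by the pathway (chromosome 10, 127329882 to 127341974, minus strand), was scarce in all subsets. In GFP-positive bone it had 4.93, 6.25 and 4.96 CPM in knockouts and 2.47, 4.89 and 3.08 CPM in controls. The groups there did not overlap, but by a narrow gap (log2 0.63 ± 0.24, adjusted p = 0.0375), and the call was lost without control replicate 1 (0.42), control replicate 3 (0.56) or knockout replicate 2 (0.50). It was also lost with the length trend removed (0.46, adjusted p = 0.142), with library totals alone (0.25, adjusted p = 0.442), with no filter on low counts (adjusted p = 0.0915), with DESeq2 (adjusted p = 0.0601) and with only the libraries compared (adjusted p = 0.0873). GFP-negative bone held 2.84, 4.17 and 3.49 CPM of Gli1 in knockouts and 2.63, 2.73 and 1.86 CPM in controls, also without overlap and not called (log2 0.53 ± 0.30, adjusted p = 0.154). In marrow it was under 1 CPM in all 6 libraries, with 13 to 25 counts in knockouts and 15 to 24 in controls. Its exons overlap those of Arhgap9 on the other strand, which had at most 1.05 CPM. The sources used here do not say if counting used strand, and reads of the overlap cannot then be told apart.

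Hhip, a membrane protein that binds hedgehog ligands and blocks them (chromosome 8, 79965851 to 80058006, minus strand), did not pass the main test in any subset. In GFP-positive bone the knockout libraries split, at 4.43, 20.2 and 20.9 CPM, around the controls at 13.7, 12.2 and 9.24 CPM (log2 0.33 ± 0.43, adjusted p = 0.553). Without the low knockout replicate 1 it was called higher (0.80, adjusted p = 0.0373), and with the length trend removed it was -0.33 (adjusted p = 0.557). GFP-negative bone held 8.78, 6.59 and 8.33 CPM of Hhip in knockouts and 12.8, 11.2 and 12.5 CPM in controls, without overlap but not called (log2 -0.62 ± 0.47, adjusted p = 0.302). It was -1.14 with the length trend removed, again not called (adjusted p = 0.0604). It was called lower with only the libraries compared (-0.62, adjusted p = 0.0153) and with the trend over the longest transcript removed (-1.49, adjusted p = 0.0158). In marrow it had 6.21, 12.6 and 8.83 CPM in knockouts and 4.98, 9.53 and 13.9 CPM in controls, overlapping throughout (log2 -0.02 ± 0.44, adjusted p = 0.978; -0.51 with the length trend removed).

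The promoters of the ligand and of its binding partners are shown because Ihh fell while Ptch1 rose in the same libraries, with Hhip not called. RefSeq start sites on GRCm38.p6 were matched for 8 of the 10 genes, and each window runs from 250 bases before to 50 after the start, all 3 on the minus strand (chr1:74951623-74951922 for Ihh, chr13:63565686-63565985 for Ptch1 and chr8:80057959-80058258 for Hhip). Capitals mark the cyclic AMP response element TGACGTCA, the element at the end of the main PTH1R pathway, and its shorter form TGACG, both searched on both strands.
Ihh: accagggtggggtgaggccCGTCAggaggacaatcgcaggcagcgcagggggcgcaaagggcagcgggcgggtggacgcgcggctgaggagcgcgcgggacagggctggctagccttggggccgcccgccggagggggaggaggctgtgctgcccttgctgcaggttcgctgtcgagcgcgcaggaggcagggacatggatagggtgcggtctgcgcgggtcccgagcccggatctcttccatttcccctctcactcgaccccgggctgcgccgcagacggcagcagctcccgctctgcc
Ptch1: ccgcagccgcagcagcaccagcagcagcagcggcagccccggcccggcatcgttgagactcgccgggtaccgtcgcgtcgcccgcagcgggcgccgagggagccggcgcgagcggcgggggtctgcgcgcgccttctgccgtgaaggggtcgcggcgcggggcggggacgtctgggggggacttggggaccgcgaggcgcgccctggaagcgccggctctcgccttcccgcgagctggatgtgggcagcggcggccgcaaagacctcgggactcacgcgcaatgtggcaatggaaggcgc
Hhip: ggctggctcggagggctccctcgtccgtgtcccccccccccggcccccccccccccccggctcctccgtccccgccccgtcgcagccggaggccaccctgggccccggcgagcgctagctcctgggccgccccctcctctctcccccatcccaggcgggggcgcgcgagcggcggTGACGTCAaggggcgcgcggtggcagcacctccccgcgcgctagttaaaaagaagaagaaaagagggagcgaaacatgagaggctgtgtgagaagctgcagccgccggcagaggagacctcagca
The full element lay 75 bases before the Hhip start, where it also holds the shorter form on both strands, and 1.79% of all 32851 promoters of this length held it. The shorter form lay 231 bases before the Ihh start on the opposite strand, and 20.8% of promoters held it. The Ptch1 window held neither, but it lies at a start inside the gene, which extends to 63573598, and the outer start is not shown. The GLI motif GACCACCCA, found in 0.253% of promoters, was in none of the 16 windows of the 8 genes. A motif this rare would seldom be met in so few windows, so its absence tells little. A match or its absence describes these letters in this window and no more.

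Sox9, the master factor of the chondrocyte (chromosome 11, 112782224 to 112787760, plus strand), changed in opposite directions in the bone subsets. In GFP-positive bone it had 2989, 2823 and 2972 CPM in knockout libraries, against 1419.7, 1530.4 and 1722 CPM in control libraries. The knockout libraries lay close together and far above the controls (log2 0.91 ± 0.10, adjusted p = 3.82e-07). Sox9 in GFP-negative bone had 362, 335 and 417 CPM in knockouts and 490.4, 465 and 574 CPM in controls, so every knockout library was below every control (log2 -0.46 ± 0.10, adjusted p = 0.000783). In marrow it had 73.9, 69.6 and 70.5 CPM in knockouts and 54.4, 53.6 and 52.7 CPM in controls, a smaller rise with tight groups (log2 0.41 ± 0.10, adjusted p = 0.00254). Its merged exons are of middling length (51.4th percentile), and with the length trend removed the log2 fold changes were 0.91, -0.39 and 0.45 in the same order, all still called. All 3 differences between subsets passed the test: 1.37 ± 0.14 for GFP-positive minus GFP-negative bone (adjusted p = 7.03e-06), 0.50 ± 0.14 for GFP-positive bone minus marrow (adjusted p = 0.0188) and -0.87 ± 0.14 for GFP-negative bone minus marrow (adjusted p = 0.000629). The second of these was -0.02 (adjusted p = 0.933) with library totals in place of TMM, 0.44 (adjusted p = 0.0544) without control GFP-positive bone replicate 1, and 0.41 (adjusted p = 0.0525) with the trend over the longest transcript removed.

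Sox5 (chromosome 6, 143828425 to 144781977, minus strand) and Sox6 (chromosome 7, 115470872 to 116038796, minus strand) encode SOX proteins that lack an activation domain of their own and help SOX9 on cartilage genes. In GFP-positive bone Sox5 had 79.8, 82.8 and 70.8 CPM in knockouts and 46.8, 45.4 and 50.4 CPM in controls (log2 0.71 ± 0.15, adjusted p = 0.000655). Sox6 had 52.1, 54.5 and 41.9 CPM in knockouts and 24.9, 24.3 and 23.1 CPM in controls there (log2 1.04 ± 0.24, adjusted p = 0.00134). Both rose in this subset with no overlap of the groups, yet neither rise held with the length trend removed (Sox5 -0.32, adjusted p = 0.0792; Sox6 -0.02, adjusted p = 0.953), and that of Sox5 was 0.33 (adjusted p = 0.0774) with library totals alone. In GFP-negative bone Sox5 had 9.92, 9.12 and 8.46 CPM in knockouts and 15.7, 14.3 and 14.97 CPM in controls. The log2 fold change there was -0.70 ± 0.19 (adjusted p = 0.00482), and -1.48 with the length trend removed (adjusted p = 3.47e-06). Sox6 in the same subset had 16.0, 13.6 and 9.04 CPM in knockouts and 9.72, 10.2 and 10.4 CPM in controls, overlapping and not called (log2 0.36 ± 0.29, adjusted p = 0.322; -0.43 with the length trend removed, adjusted p = 0.25). The Sox5 effect in GFP-positive bone exceeded that in GFP-negative bone by 1.42 ± 0.24 (adjusted p = 0.00123), and by 1.16, still called, with the length trend removed.

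In marrow both partner genes were scarce. Sox5 had 3.41, 4.40 and 3.19 CPM in knockouts and 1.38, 3.03 and 3.95 CPM in controls, overlapping (log2 0.44 ± 0.25, adjusted p = 0.153; -0.28 with the length trend removed). Sox6 had 0.676, 1.90 and 1.22 CPM in knockouts and 1.57, 1.32 and 4.90 CPM in controls, where control replicate 3 stood apart (log2 -1.01 ± 0.45, adjusted p = 0.0754). The marrow values of Sox6 therefore rest on few reads, with 21, 51 and 26 counts in knockouts and 42, 31 and 103 in controls. Sox5 had 106, 118 and 68 counts in knockouts and 37, 71 and 83 in controls. Sox6 was called lower there with the length trend removed (-1.74, adjusted p = 0.00412), with DESeq2 (-1.02, adjusted p = 0.0236) and without control replicate 1, control replicate 2 or knockout replicate 2 (-1.29, -1.31 and -1.47). Sox5 was called higher without control replicate 3 (0.76, adjusted p = 0.0196). The Sox6 effect in GFP-positive bone minus that in marrow was 2.05 ± 0.51 (adjusted p = 0.0094), 1.72 with the length trend removed (adjusted p = 0.0227), and 1.27 (adjusted p = 0.067) without control marrow replicate 3. The Sox5 effect in GFP-negative bone minus that in marrow was -1.14 ± 0.31 (adjusted p = 0.0279), and -1.20 with the length trend removed (adjusted p = 0.016). The adjusted p was 0.0844 with only the libraries compared and between 0.0506 and 0.0809 in 6 of 12 fits that left out 1 library (control marrow 1, knockout marrow 2, control GFP-negative bone 1 or 3, knockout GFP-negative bone 2 or 3).

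**Figure D2:**
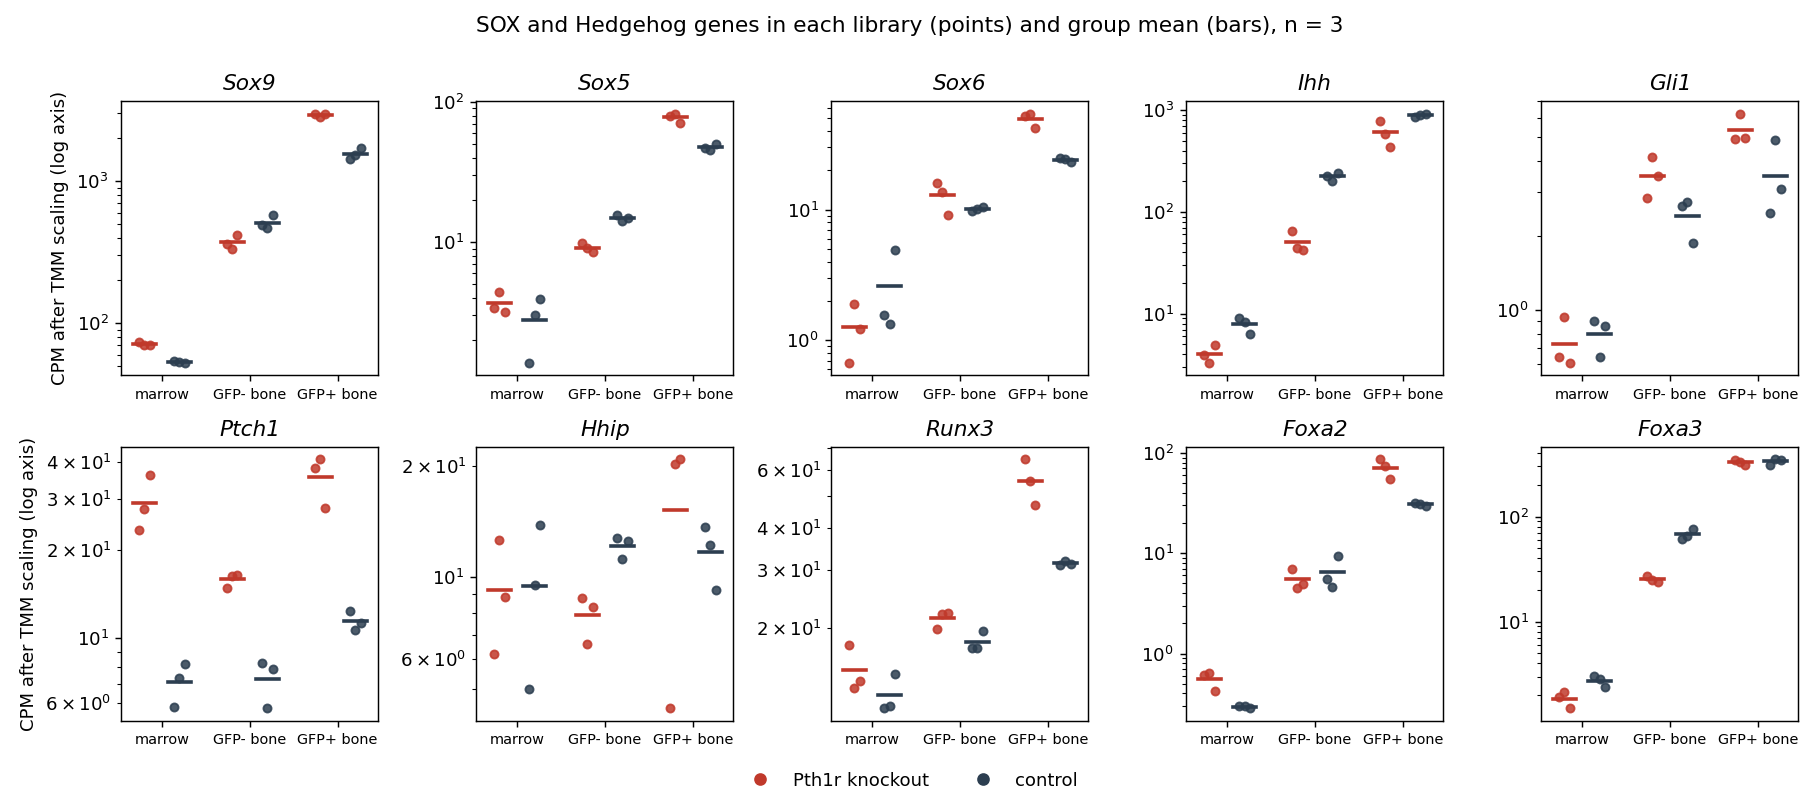
CPM after TMM scaling (log axes) of the 10 genes in each of the 18 libraries, knockout (red) left of control (dark) within each subset, with bars at the group means. Sox9 reaches 2823 to 2989 CPM in knockout GFP-positive bone, Ihh is below the controls in all 3 knockout subsets and Ptch1 above them.

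Runx3, a RUNX factor that shares work with RUNX2 in chondrocyte maturation (chromosome 4, 135120652 to 135177990, plus strand), rose in GFP-positive bone. There it had 64.7, 55.4 and 47.0 CPM in knockout libraries, against 31.0, 31.8 and 31.2 CPM in control libraries, with a wide gap between the groups (log2 0.84 ± 0.13, adjusted p = 2.65e-05; 0.66 with the length trend removed, still called). Runx3 in GFP-negative bone had 19.9, 22.1 and 22.2 CPM in knockouts and 17.4, 17.4 and 19.5 CPM in controls, and in marrow 17.7, 13.2 and 13.8 CPM in knockouts and 11.4, 11.6 and 14.5 CPM in controls. Those log2 differences were 0.24 ± 0.14 (adjusted p = 0.181) and 0.27 ± 0.14 (adjusted p = 0.141), neither called. DESeq2 called the first (0.35, adjusted p = 0.0397) and library totals alone the second (0.40, adjusted p = 0.0382). The effect in GFP-positive bone minus that in GFP-negative bone was 0.59 ± 0.19, not called (adjusted p = 0.0807), and 0.70 without knockout GFP-positive bone replicate 3 (adjusted p = 0.0397). The effect in GFP-positive bone exceeded that in marrow by 0.57 ± 0.19 (adjusted p = 0.0478), a call that 9 of the 12 fits leaving out 1 library lost, with values of 0.45 to 0.62, all but those without control marrow 1, knockout marrow 1 or knockout GFP-positive bone 3. The call was also lost with library totals alone (adjusted p = 0.884), with no filter on low counts (0.49, adjusted p = 0.18), with only the libraries compared (0.57, adjusted p = 0.0821) and with the length trend removed (0.50, adjusted p = 0.0837). T and NK cells also express Runx3. Their 9 defining markers summed to at most 2.58 CPM in any library. In knockout GFP-positive bone 6 of the 9 had counts, while Cd3e, Cd8a and Ncr1 were at 0. Cd8a was at 0 in every group and Ncr1 in every group but control marrow. The part of such cells in the Runx3 result was not tested.

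Foxa2 and Foxa3 encode forkhead factors best known from liver and gut, which in mouse cartilage act in hypertrophic chondrocytes. Foxa2 (chromosome 2, 148042877 to 148046969, minus strand) rose in GFP-positive bone, with 86.9, 73.3 and 54.4 CPM in knockouts and 31.8, 31.0 and 29.5 CPM in controls (log2 1.22 ± 0.18, adjusted p = 1.17e-05; 1.50 with the length trend removed). The knockout libraries varied more than the controls, but the lowest was still above all controls. GFP-negative bone held 7.02, 4.53 and 4.97 CPM of Foxa2 in knockouts and 5.52, 4.56 and 9.34 CPM in controls, overlapping and not called (log2 -0.22 ± 0.25, adjusted p = 0.514). In marrow it was under 1 CPM, with 19, 17 and 9 counts in knockouts and 8, 7 and 6 in controls (adjusted p = 0.245). Of the 8 endoderm and liver markers, Ttr and Apoa1 were at 0 in both genotypes of GFP-positive bone, and the list summed to 25.0 to 27.6 CPM in knockouts and 2.41 to 4.13 CPM in controls, mostly from the epithelial genes Epcam and Krt8. The part of that shift in the Foxa2 result was not tested.

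Foxa3 (chromosome 7, 19013284 to 19023538, minus strand) followed another course. In GFP-positive bone it had 346, 328 and 306 CPM in knockouts and 309, 352 and 343 CPM in controls, overlapping (log2 -0.03 ± 0.10, adjusted p = 0.792). Its sign there depended on the scaling: it was called higher with the length trend removed (0.28, adjusted p = 0.0195) and lower with library totals alone (-0.42, adjusted p = 0.00203). In GFP-negative bone it fell clearly, with 27.3, 24.9 and 24.0 CPM in knockouts and 60.8, 65.0 and 76.7 CPM in controls (log2 -1.41 ± 0.11, adjusted p = 1.17e-08). In marrow it had 1.93, 2.13 and 1.50 CPM in knockouts and 3.03, 2.82 and 2.38 CPM in controls, lower without overlap (log2 -0.56 ± 0.18, adjusted p = 0.0158). The marrow call was lost with the length trend removed (-0.24, adjusted p = 0.302), with library totals alone (-0.42, adjusted p = 0.0825), with only the libraries compared (adjusted p = 0.114), and without control replicate 1 (-0.47) or knockout replicate 3 (-0.45). The bone subsets differed in their response both for Foxa2, by 1.44 ± 0.31 (adjusted p = 0.0081), and for Foxa3, by 1.37 ± 0.14 (adjusted p = 8.99e-06), and for Foxa3 the effect in GFP-negative bone was also lower than in marrow, a difference of -0.85 ± 0.21 (adjusted p = 0.0163). That last call was lost without control marrow 3, knockout marrow 1 or knockout marrow 2 (adjusted p = 0.0517, 0.056 and 0.0684).

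Counted together, 8 of the 10 genes were called in knockout GFP-positive bone, where 51.3% of all genes tested were called. There 7 rose, against 26% of all genes called higher, and 1 fell, against 25.3% called lower. In knockout GFP-negative bone 1 rose (21.5% of all genes) and 4 fell (25.7%), 5 in all against 47.1%. In knockout marrow 2 rose (23.1%) and 2 fell (24.8%), 4 in all against 47.9%. The counts in GFP-negative bone and marrow are thus close to the background, while that in GFP-positive bone is above it. With the length trend removed, 5 rose (20.6%) and 0 fell (25.1%) in GFP-positive bone against 45.7% of all genes called, 0 rose (18.1%) and 4 fell (22.1%) in GFP-negative bone against 40.1%, and 2 rose (19.5%) and 2 fell (23%) in marrow against 42.5%. The 5 that then rose in GFP-positive bone were Sox9, Ptch1, Runx3, Foxa2 and Foxa3, the last not called in the main fit. In the main fit the median log2 fold change of the 10 genes was 0.78 in GFP-positive bone, -0.34 in GFP-negative bone and 0.12 in marrow. Over all genes tested it was 0.03, -0.07 and -0.04.

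By the values alone, all 3 knockout libraries lay above all 3 controls for 7 of the 10 genes in GFP-positive bone (28.8% of all genes) and below them for 1 (28.8%), 8 in all against 57.6%. In GFP-negative bone 3 genes lay above (24.7%) and 5 below (29.7%), against 54.4% of all genes without overlap, and in marrow 3 lay above (26.1%) and 2 below (28.6%), against 54.7%. Differences in the effect between subsets were rarer among all genes. For GFP-positive minus GFP-negative bone 5 of the 10 were called, all positive, where 6.08% of all genes were called, 4.98% higher and 1.11% lower. For GFP-negative bone minus marrow 4 were called, all negative, where 7.79% of all genes were called, 4.49% higher and 3.31% lower. For GFP-positive bone minus marrow 3 were called, all positive, where 18.4% of all genes were called, 10.8% higher and 7.6% lower. With the length trend removed this last comparison had 2 higher and 1 lower, beside 1466 and 1545 of the 15516 genes tested. The lower one was Ptch1 (-0.71, adjusted p = 0.0472), also called lower with library totals alone (-0.92, adjusted p = 0.0122). With library totals alone the calls of Sox9 (-0.02) and Runx3 (0.05) were lost. With 1 library left out 1 to 3 were called there.

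**Figure D3:**
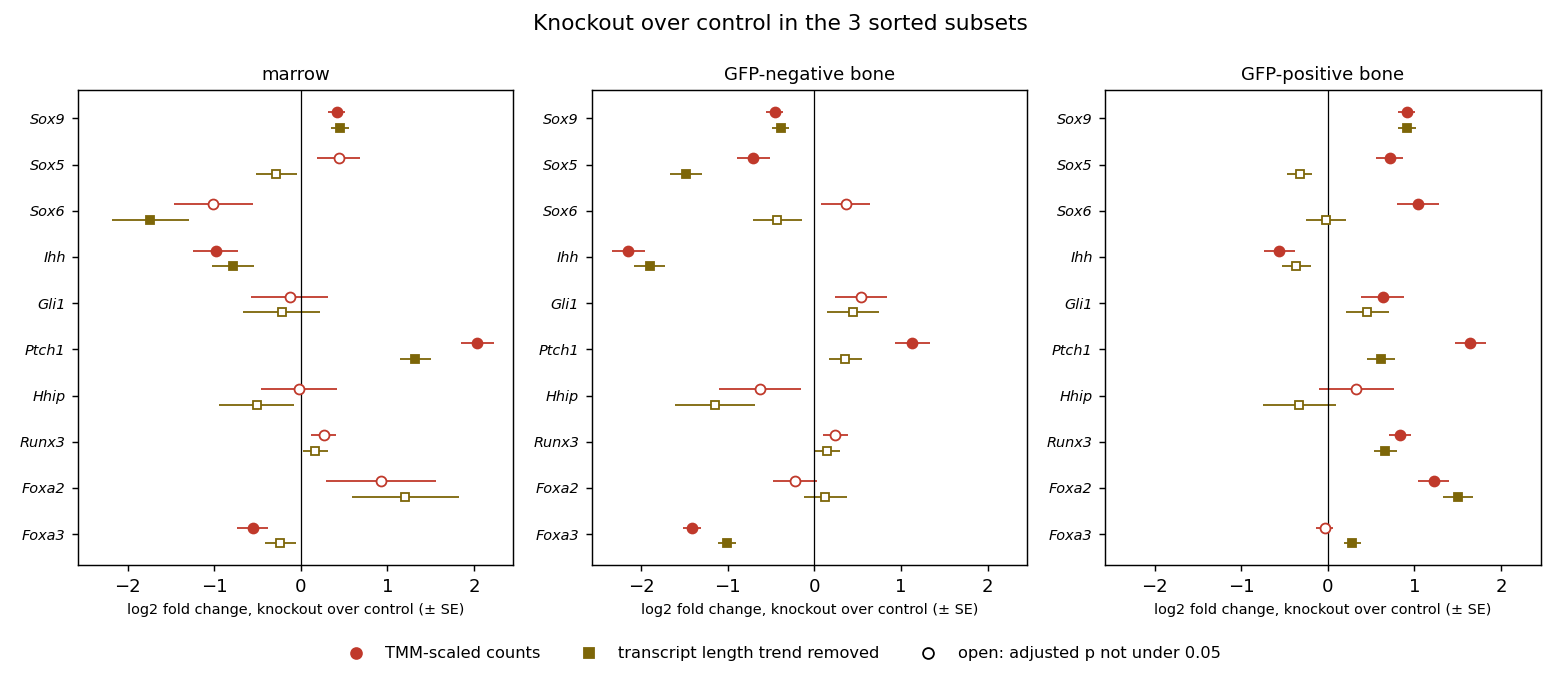
Log2 fold change of knockout over control (± SE) for the 10 genes in each subset, from TMM-scaled counts (red circles) and with the transcript length trend removed (brown squares), open where the adjusted p was not under 0.05. In GFP-positive bone the squares of Sox5 (-0.32) and Sox6 (-0.02) lie at or below 0 while those of Sox9 (0.91) and Foxa2 (1.50) stay above it.

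Among control libraries the genes were ordered by subset. GFP-positive bone was above GFP-negative bone for 8 of the 10 genes, where 40% of all genes were called, 18.2% higher and 21.8% lower. It was above marrow for 9, where 62.8% of all genes were called, 29.8% higher and 33% lower. GFP-negative bone was above marrow for 8, where 39.3% of all genes were called, 21.1% higher and 18.2% lower. Sox9 averaged 1557 ± 153 CPM in GFP-positive bone, 509.8 ± 57.0 CPM in GFP-negative bone and 53.6 ± 0.846 CPM in marrow (SD, n = 3 each), and each step passed the test. The steepest drops from GFP-positive bone to marrow were those of Foxa3 (log2 6.92 ± 0.14), Ihh (6.80 ± 0.24) and Foxa2 (6.68 ± 0.33), while Runx3 dropped by 1.33 ± 0.14. The step of Ptch1 between the bone subsets (0.67 ± 0.21, adjusted p = 0.0146) was not called without control GFP-negative bone replicate 2 (0.52, adjusted p = 0.086). Ptch1 followed a flatter order, with 11.5 ± 0.878 CPM in GFP-positive bone and no call between GFP-negative bone (7.28 ± 1.32 CPM) and marrow (7.08 ± 1.19 CPM; log2 0.04 ± 0.22, adjusted p = 0.907). Gli1 did not differ by the test between the bone subsets (log2 0.53 ± 0.29, adjusted p = 0.154), and Hhip differed between no pair of subsets. Per kilobase of merged exon, Sox9 was the most abundant of the 10 in GFP-positive bone, at 708 CPM per kilobase in knockouts and 377 in controls, followed by Ihh at 198 in knockouts and 292 in controls and Foxa3 at 160.4 in knockouts and 164 in controls. Ptch1 was at 2.51 CPM per kilobase in knockouts and 0.809 in controls, and Gli1 at 1.08 in knockouts and 0.697 in controls.

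Across all 18 libraries the genes with profiles most like Ihh were the matrix genes Cnmd and Matn3 and the actin-severing gene Scin. Their log2 levels, each centred on its own mean, differed from those of Ihh by a root mean square of 0.180, 0.220 and 0.220, against a standard deviation of 2.96 for Ihh itself, among 13541 genes compared. Hapln1 (0.188) was nearest to Foxa3, Col9a2 (0.335) to Foxa2, Wnk4 (0.299) to Sox9, Sort1 (0.288) to Ptch1 and Arhgef1 (0.164) to Runx3. Slc38a4 (0.365) was nearest to Sox5, Rnd1 (0.325) to Sox6 and Nop58 (0.289) to Gli1. Among the 10 genes themselves Ihh and Foxa3 were the closest pair (0.389) and Sox9 and Sox5 the next (0.515). These distances come from the same 18 libraries, with their contrasts between subsets and genotypes, and describe likeness only. For Hhip the nearest gene, Mphosph10, was at 0.475 against a standard deviation of 0.591 for Hhip, so no gene followed it closely.

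The other Hedgehog pathway genes rose in more cases than they fell. Of 21 genes on the list 20 were tested, since Shh had no counts in any library. In knockout marrow 12 were higher and 1 lower, with 23.1% and 24.8% of all genes called in those directions, and the median log2 fold change of the list was 0.69. In GFP-positive bone 13 were higher and none lower (median 1.05), where 26% of all genes were called higher and 25.3% lower. In GFP-negative bone 14 were higher and none lower (median 0.68), where 21.5% of all genes were called higher and 25.7% lower. With the length trend removed the counts were 10 higher and 2 lower in marrow, 11 and 1 in GFP-positive bone, and 11 and 0 in GFP-negative bone. With library totals alone GFP-negative bone had 7 higher and 1 lower. Gli2 and Gli3, which encode other GLI factors, rose in every subset. Gli3 had 24.8, 27.3 and 24.6 CPM in knockout GFP-positive bone, against 5.89, 5.05 and 6.01 CPM in controls (log2 2.18 ± 0.26, adjusted p = 1.31e-06). Gli2, chosen after its values were seen, rose by 1.73 in marrow, 1.69 in GFP-positive bone and 2.15 in GFP-negative bone on the log2 scale, where no control library was above 4.06 CPM. With the trend over the longest transcript removed, Gli2 in GFP-positive bone (0.77, adjusted p = 0.215) and Gli3 in marrow (0.45, adjusted p = 0.188) were no longer called.

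By the rule of smallest p within the list, Gpr161, a ciliary receptor that restrains the pathway, had 9.85, 10.9 and 10.4 CPM in knockout marrow, against 1.42, 1.45 and 1.57 CPM in control marrow (log2 2.80 ± 0.25, adjusted p = 7.52e-08). Evc2, which helps SMO signal at the cilium base, rose by 1.33 ± 0.14 in marrow and by 1.80 ± 0.16 in GFP-negative bone. Smo itself rose by 0.75 ± 0.13 in marrow, and Sufu, whose product holds the GLI factors back, by 0.71 ± 0.13. Disp1, which releases the ligand from the cell that makes it, had 80.0, 74.7 and 78.3 CPM in knockout GFP-positive bone, against 31.3, 33.3 and 32.2 CPM in controls (log2 1.27 ± 0.13, adjusted p = 3.23e-07). Its rise in GFP-positive bone exceeded that in GFP-negative bone by 0.83 ± 0.20 (adjusted p = 0.0158). The co-receptor genes Cdon (1.96 ± 0.27, in GFP-positive bone) and Boc (1.45 ± 0.17, in GFP-negative bone) rose as well. The only called fall was that of Dhh, another hedgehog ligand named here after its values were seen, in marrow, which rested on 1, 0 and 0 counts in knockouts and 5, 4 and 4 in controls.

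**Figure D4:**
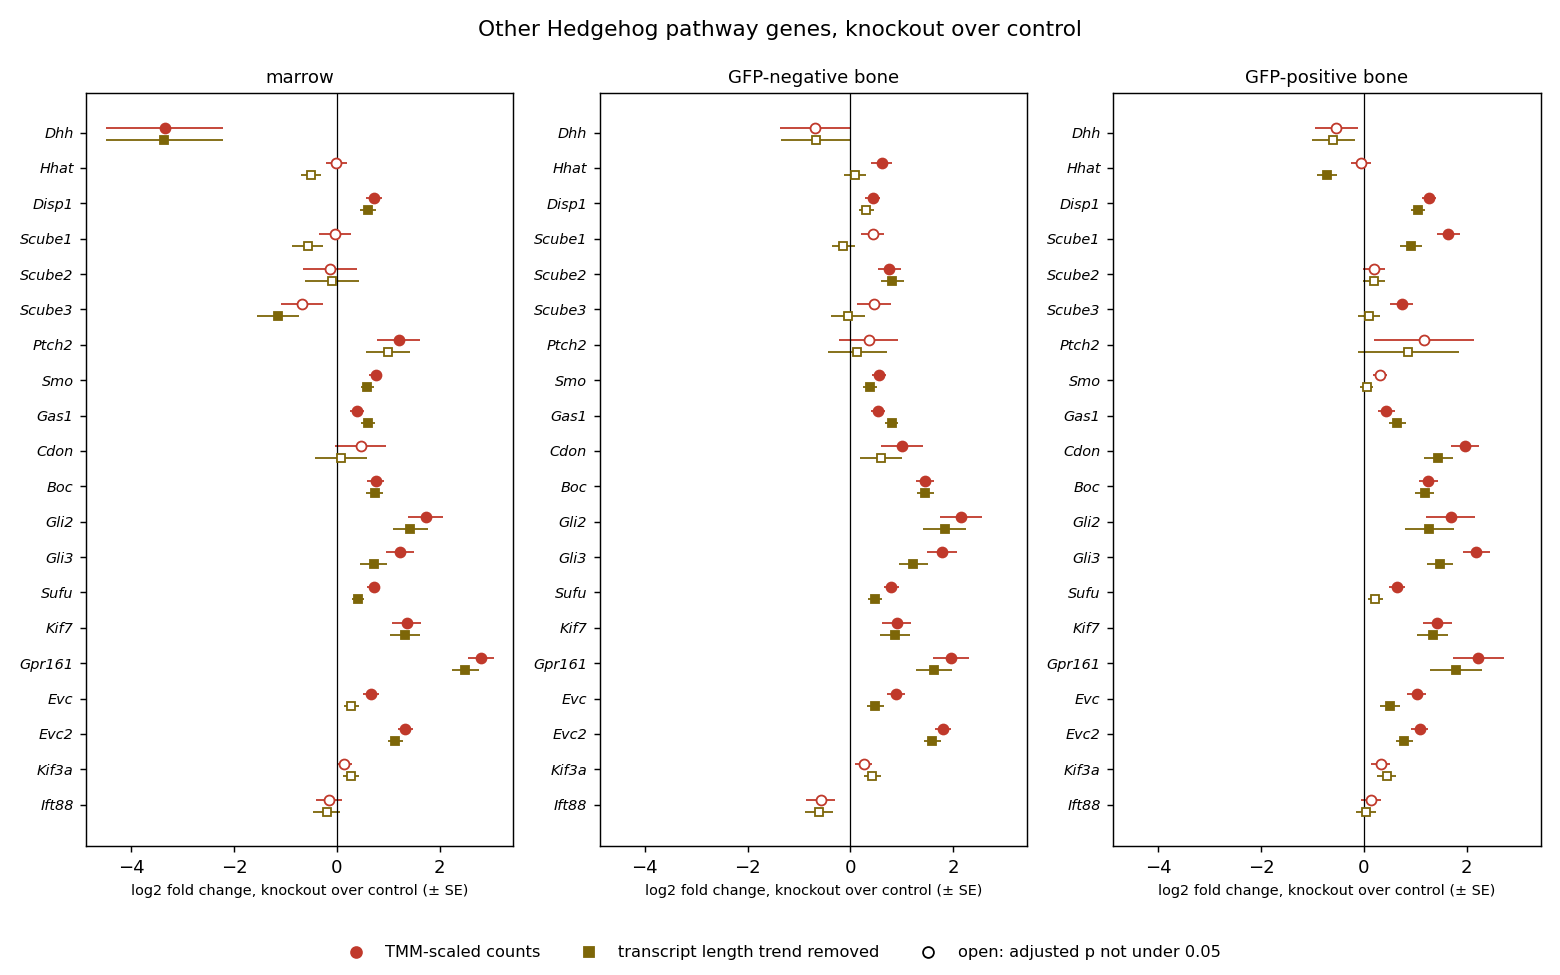
Log2 fold change of knockout over control (± SE) for the 20 tested Hedgehog pathway genes outside the set of 10, by subset, from TMM-scaled counts (red circles) and with the length trend removed (brown squares), open where not called. In GFP-positive bone 13 circles are called, all above 0, with Gli3 at 2.18 and Disp1 at 1.27.

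On the PTHrP side 6 genes were listed, Pth1r among them. In marrow 1 rose (23.1% of all genes called higher) and 3 fell (24.8% called lower). In GFP-positive bone 0 rose (26%) and 2 fell (25.3%), and in GFP-negative bone 2 rose (21.5%) and 1 fell (25.7%). With library totals alone 0 rose and 5 fell in GFP-positive bone, and 0 rose and 2 fell in GFP-negative bone. The fall of Pth1r was no longer called with the length trend removed in GFP-positive bone (-0.30, adjusted p = 0.0554) and in GFP-negative bone (-0.30, adjusted p = 0.0661). Pthlh, the gene of PTHrP, was rare. In GFP-negative bone it had 6.51, 12.8 and 4.58 CPM in knockouts and 3.64, 2.41 and 5.75 CPM in controls, overlapping (log2 1.05 ± 0.41, adjusted p = 0.0368). That call was lost without knockout replicate 2 (0.53, adjusted p = 0.344), control replicate 1 (1.01) or control replicate 2 (0.78). It was also lost with DESeq2 (adjusted p = 0.112), with no filter on low counts (adjusted p = 0.0633), with library totals alone (0.84, adjusted p = 0.109) and with only the libraries compared (adjusted p = 0.0535). In marrow it had 7, 7 and 4 counts in knockouts and 17, 53 and 93 in controls (log2 -3.33 ± 0.77, adjusted p = 0.00112), where the control libraries themselves varied widely. In GFP-positive bone it had 18, 6 and 10 counts in knockouts and 3, 0 and 3 in controls, a log2 fold change of 2.78 ± 1.38 that was not called (adjusted p = 0.0981), but was with DESeq2 (2.89, adjusted p = 0.00235) and with only the libraries compared (adjusted p = 0.0125). The effect in GFP-negative bone minus that in marrow was 4.38 ± 0.87 (adjusted p = 0.00241).

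The cartilage matrix genes under SOX9 followed Sox9 in part in the bone subsets. In marrow Sox9 rose, while more of these genes fell than rose. In knockout GFP-positive bone 8 of the 16 rose (26% of all genes called higher) and 4 fell (25.3% called lower). In GFP-negative bone 3 rose (21.5%) and 10 fell (25.7%), and in marrow 3 rose (23.1%) and 7 fell (24.8%). The median log2 fold changes were 0.33, -0.92 and -0.31, beside 0.03, -0.07 and -0.04 over all genes, and the first was -0.06 with library totals alone. In GFP-positive bone Col2a1, the main cartilage collagen and chosen after its values were seen, had 279705, 251359 and 259872 CPM in knockouts, against 80472, 76096 and 97345 CPM in controls (log2 1.64 ± 0.16, adjusted p = 1.08e-07). Acan, the large proteoglycan of cartilage, had 7726, 7365 and 5957 CPM in knockouts and 1577, 1266 and 1554 CPM in controls there (log2 2.26 ± 0.14, adjusted p = 8.55e-10). Col11a2 rose by 3.39 ± 0.26 and Col9a2 by 1.61 ± 0.12 in the same subset. The 4 fallers there were Ucma, Cnmd, Matn3 and Mia, led by Ucma, a secreted cartilage protein, at 79.8, 79.1 and 99.97 CPM in knockouts and 243, 255 and 261 CPM in controls (log2 -1.55 ± 0.13, adjusted p = 2.44e-08).

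In GFP-negative bone Ucma (-3.11 ± 0.16), Cnmd (-2.40 ± 0.14), Matn3 (-2.16 ± 0.13) and Hapln1 (-1.59 ± 0.12) fell most surely. Cnmd, which encodes chondromodulin, had 458, 374 and 395 CPM in knockouts and 1999.9, 1907 and 2552 CPM in controls in that subset, where Ihh also fell. The 3 genes that rose there were Col11a1, Col11a2 and Matn4, of which only Col11a2 was still called with the length trend removed. The effect in GFP-positive bone exceeded that in GFP-negative bone for 14 of the 16 matrix genes and was below it for none, where 4.98% of all genes were called in that direction. All 8 chondrocyte markers are also on this list, so its counts and the marker sums are not separate evidence.

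**Figure D5:**
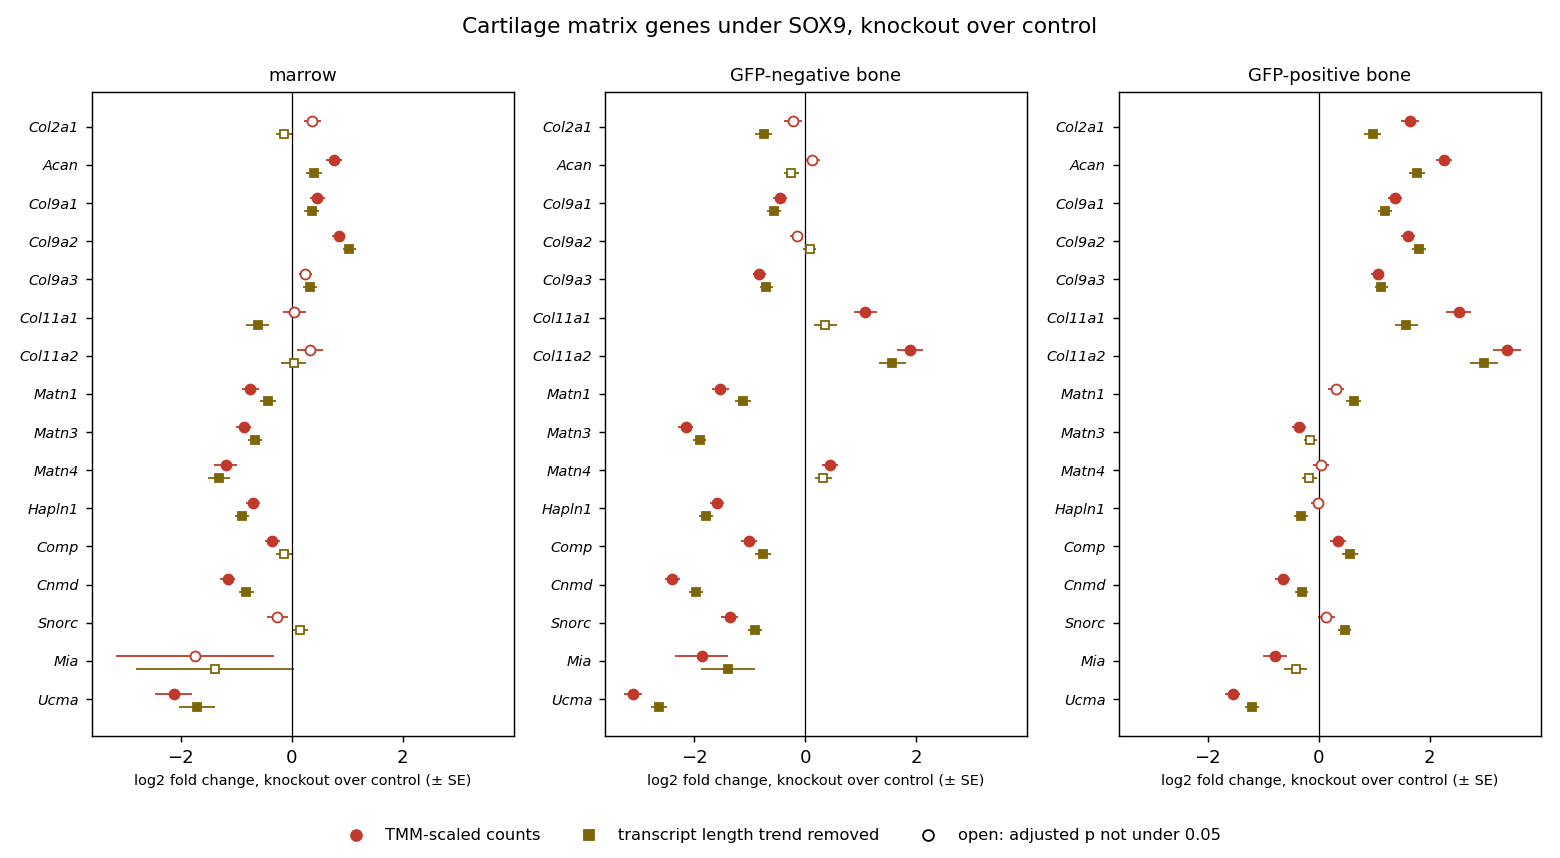
Log2 fold change of knockout over control (± SE) for the 16 cartilage matrix genes, by subset, from TMM-scaled counts (red circles) and with the length trend removed (brown squares), open where not called. Col11a2 (3.39), Col11a1 (2.52) and Acan (2.26) stand highest in GFP-positive bone, and Ucma (-3.11) and Cnmd (-2.40) lowest in GFP-negative bone.

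Genes of the hypertrophic stage, at which Runx3, Foxa2 and Foxa3 act, form a list of 9. In knockouts 6 were called higher and 1 lower in GFP-positive bone, 5 higher and 1 lower in GFP-negative bone, and 1 higher and 6 lower in marrow, where 51.3%, 47.1% and 47.9% of all genes were called. With library totals alone the counts were 3 higher and 1 lower in GFP-positive bone, and 2 higher and 2 lower in GFP-negative bone. Col10a1, the collagen that defines hypertrophic cartilage, had 8901, 8662 and 8469 CPM in knockout GFP-positive bone, against 1857, 2086 and 1713 CPM in controls (log2 2.20 ± 0.24, adjusted p = 1.09e-06). Panx3, a channel gene of the same stage, fell by 1.58 ± 0.12 in GFP-negative bone and by 1.63 ± 0.13 in marrow. Osteoblasts also express several of these genes, and the osteoblast marker sum in marrow was 66883 to 91057 CPM in knockouts and 144716 to 196507 CPM in controls. In GFP-negative bone it was 266679 to 348627 CPM in knockouts and 220142 to 242448 CPM in controls. Most of that sum is Col1a1, with a mean of 290419 CPM in knockouts and 219634 CPM in controls. As shares of the library total, the means of Ibsp, Dmp1 and Phex were also higher in knockouts there. Those of Bglap, Bglap2, Alpl and Sp7 were lower, for example 2156 CPM in knockouts and 3005 CPM in controls for Alpl. The part of these shifts in the counts was not tested.

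Of 15 other cartilage transcription regulators, 8 were higher and 1 lower in knockout GFP-positive bone, 5 rose and 5 fell in GFP-negative bone, and 4 rose and 4 fell in marrow, shares of 60%, 66.7% and 53.3% beside 51.3%, 47.1% and 47.9% of all genes. With the length trend removed the counts were 5 higher and 3 lower in GFP-positive bone, 4 and 6 in GFP-negative bone, and 2 and 7 in marrow, and with library totals alone GFP-positive bone had 7 and 4. Runx2, another RUNX gene, rose by 0.96 ± 0.12 in GFP-positive bone and by 0.86 ± 0.12 in GFP-negative bone. Neither rise was called with the trend over the longest transcript removed (0.07 and 0.13). Runx1 rose in all 3 subsets, by 1.11 ± 0.20 in GFP-positive bone, 1.70 ± 0.20 in GFP-negative bone and 1.37 ± 0.18 in marrow, the first not called with the length trend removed (0.20, adjusted p = 0.451). Trps1, a repressor that acts in the growth plate, rose by 1.72 ± 0.14 in GFP-positive bone. Among the genes with the smallest p some fell: Cbfb (-1.30 ± 0.10) and Mef2c (-1.10 ± 0.21) in marrow, and Wwp2 (-0.83 ± 0.11) in GFP-negative bone. Of the other growth plate signals, 5 of 8 tested rose in GFP-positive bone (26% of all genes called higher) and in marrow (23.1%). In GFP-negative bone 2 rose (21.5%), close to the background. In each subset 1 was lower, beside 25.3%, 24.8% and 25.7% of all genes in the same order. In GFP-negative bone it was Wnt5b (-0.98 ± 0.14, adjusted p = 9.54e-06). Npr2, the receptor for C-type natriuretic peptide, rose by 1.51 ± 0.13, 1.45 ± 0.13 and 1.46 ± 0.12 in GFP-positive bone, GFP-negative bone and marrow, and Bmp6, a growth factor of hypertrophic chondrocytes, by 1.50 ± 0.15, 0.87 ± 0.15 and 1.06 ± 0.15 in the same order.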

How the data were processed

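Sorted osterix-derived cells were profiled by RNA-seq from low-input libraries (RNeasy Plus Micro, SMART-Seq v4 and SMARTer ThruPLEX, per the labels' protocols). The authors deposited raw counts for each gene, 1 library a file, with gene IDs and merged exon lengths per the file headers. STAR, featureCounts, DESeq2 and mm10 are named without versions in the submitters' processing notes, and strand settings are not given in the sources used here. Of 54446 IDs 54409 matched a symbol in GENCODE. All 18 libraries were fitted together with edgeR 4.0.16 in R 4.3.3: TMM scaling, filterByExpr (minimum count 10, minimum total 15; 15516 genes kept), 6 group means, the quasi-likelihood F-test with 12 residual degrees of freedom, two-sided, and Benjamini-Hochberg adjustment over all genes tested, called under 0.05. SE is the log2 fold change divided by the root of F. The length trend was a loess curve (span 0.3), over log2 merged exon length, of how far each library lay from the mean log2 CPM of its subset (prior count 2), put into the offsets. No replicates were merged, since pairs differed by more than counting error (chi-square over its degrees of freedom, 14.05 to 52.85). Genes outside the 10 were named by a rule: up to 4 called genes of each list and comparison with the smallest p. Pth1r and Pthlh were always named. The rule also took the 3 genes most like each of the 10, but only the nearest is given except for Ihh. Not every gene the rule allows is named. From the lists Gli2, Dhh, Col2a1, Mia, Col11a1 and Matn4 were named outside this rule. Alternatives were DESeq2 1.42.0, its size factors, library totals alone, no filter on low counts, only the libraries compared, length trends, a replicate block and each library left out; the trend over the longest transcript was added after seeing the data. The script was tested on simulated data. The genes and lists were chosen with earlier results of these data known. Floors cover counting error only.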

Additional observations from a re-analysis of the deposited data

Results flagged for a closer look

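The size of the knockout effect differed between subsets, by the test of the difference itself, in 12 cases among the 10 genes (edgeR quasi-likelihood test, adjusted over all genes). For GFP-positive minus GFP-negative bone the differences were 1.37 for Sox9, 1.42 for Sox5, 1.59 for Ihh, 1.44 for Foxa2 and 1.37 for Foxa3. Sox9 moved in opposite directions in these subsets, whereas Ihh was lower in both. Sox5 also moved in opposite directions, but not with the length trend removed. It was then -0.32 in GFP-positive bone, not called, and -1.48 in GFP-negative bone. For GFP-positive bone minus marrow they were 0.50 for Sox9, 2.05 for Sox6 and 0.57 for Runx3. For GFP-negative bone minus marrow they were -0.87 for Sox9, -1.14 for Sox5, -1.16 for Ihh and -0.85 for Foxa3. In some fits that left out 1 library, the calls of Sox9, Sox6 and Runx3 for GFP-positive bone minus marrow were lost. So were those of Sox5, Ihh and Foxa3 for GFP-negative bone minus marrow. With library totals alone Sox9 (-0.02) and Runx3 (0.05) for GFP-positive bone minus marrow were not called.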

How the results depend on the processing

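The limits are the length trend, which runs with genotype, and depth, since Sox6, Gli1 and Foxa2 rest on few reads in marrow. The cause of each change below was not tested. Over the 90 results on the 10 genes, sign and call stayed in 87 with DESeq2 size factors, 82 with DESeq2, 83 with no filter on low counts, 85 with only the libraries compared, 70 with library totals alone, and 73 and 72 with the trends over merged exon length and the longest transcript. With either length trend removed 5 of the 10 genes, instead of 8, were called in GFP-positive bone. Sox9, Ptch1, Runx3 and Foxa2 kept their call, and Foxa3 was newly called, while Sox5, Sox6, Ihh and Gli1 lost theirs.

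With the trends over merged exon length and the longest transcript removed, signs turned for Sox5 in marrow (-0.28 and -0.30), Col2a1 in marrow (-0.13 and -0.040), and in GFP-positive bone Sox5 (-0.32 and -0.28), Sox6 (-0.021 and -0.072), Hhip (-0.33 and -0.81), Foxa3 (0.28 and 0.28) and Zbtb20 (-0.38 and -0.31). In GFP-negative bone they turned for Sox6 (-0.43 and -0.49) and Foxa2 (0.13 and 0.12). Sox5 for GFP-positive bone minus marrow was -0.042 with the first. With library totals alone Gli1 (0.0045) and Hhip (0.12) turned in marrow and Hhip (-0.041) in GFP-positive bone, as did Gli1 for GFP-positive minus GFP-negative bone (-0.052) and, for GFP-positive bone minus marrow, Sox9 (-0.020), Sox5 (-0.24), Ihh (-0.10), Hhip (-0.16) and Foxa2 (-0.23). With no filter Hhip in marrow was 0.024 and Gli1 for GFP-positive minus GFP-negative bone -0.021. Runx3 for GFP-negative bone minus marrow was 0.063, 0.012 and 0.067 with size factors, no filter and DESeq2. Among controls, Hhip for GFP-positive over GFP-negative bone was 0.056, 0.15, 0.039 and 0.046 with size factors, totals, no filter and DESeq2, and 0.019 and 0.084 with the length trends, and Ptch1 for GFP-negative bone over marrow was -0.012, -0.24 and -0.013 with size factors, totals and DESeq2.

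Over all genes, 1420 differed between the bone subsets in their knockout effect by DESeq2 against 944, and with library totals alone 5676 against 2853 for GFP-positive bone minus marrow and 3735 against 1209 for GFP-negative bone minus marrow. Library totals moved the median of all genes by 0.13, -0.37 and -0.23 in marrow, GFP-positive and GFP-negative bone. Higher genes made up 59.6% of calls with totals, against 48.2%, in marrow, 30.9% against 50.7% in GFP-positive bone and 30.8% against 45.6% in GFP-negative bone. For the differences it was 62.2% against 81.8% (70.7% with size factors) between the bone subsets, 13.5% against 58.7% for GFP-positive bone minus marrow, and 10.9% against 57.6% (70.7% with size factors) for GFP-negative bone minus marrow. Among controls it was 62.1% against 45.5% for GFP-positive over GFP-negative bone and 27.6% against 53.7% for GFP-negative bone over marrow.

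With 1 library left out, 3 to 5 of the 10 genes and 6477 to 6858 of all genes were called in marrow, 7 to 9 and 7067 to 7559 in GFP-positive bone, and 5 and 6417 to 6774 in GFP-negative bone. For the differences the ranges were 5 to 6 and 673 to 858 for GFP-positive minus GFP-negative bone, 1 to 3 and 2212 to 2815 for GFP-positive bone minus marrow, and 2 to 5 and 914 to 1265 for GFP-negative bone minus marrow. Among controls they were 7 to 8 and 5271 to 5599, 9 and 8988 to 9253, and 8 and 5017 to 5542. Signs turned for Hhip in marrow (-0.34 to 0.35), Foxa3 in GFP-positive bone (-0.090 to 0.010), Foxa2 in GFP-negative bone (-0.44 to 0.14), Gli1 for GFP-positive minus GFP-negative bone (-0.11 to 0.44), Sox5 (-0.048 to 0.63) and Hhip (-0.024 to 0.82) for GFP-positive bone minus marrow, Runx3 for GFP-negative bone minus marrow (-0.14 to 0.13), and among controls Hhip between the bone subsets (-0.17 to 0.091) and Ptch1 for GFP-negative bone over marrow (-0.094 to 0.19).

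Libraries with the same number correlated at 0.0324 to 0.1186 between control subsets and 0.0972 to 0.2064 between knockout subsets, and at -0.063 to 0.1223 between genotypes. Within its genotype each library correlated best with its own number. Libraries of a genotype with the same number may therefore be paired, which the sources used here do not state. The main fit did not use such a pairing. With the number as a replicate block all 90 results kept sign and call, and 7593, 8124 and 7467 genes were called in marrow, GFP-positive and GFP-negative bone, with 1342 and 3449 for the differences of GFP-positive bone from GFP-negative bone and from marrow.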
